A study of Caenorhabditis elegans with 4 samples.

Results

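Peaks of the nuclear hormone receptor NHR-11 on chromosome X of Caenorhabditis elegans were taken from 3 deposited peak lists by the chromosome named in each row, with starts and ends on WormBase WS220. They numbered 1611 of 11225 peaks: 357 of 2197 in the list of ChIP replicate 1, 339 of 1939 in that of replicate 2, and 915 of 7089 in the list deposited for the whole series. Merging replicate peaks with an overlap of 1 bp or more gave 208 shared regions on X of 1212 in all. Shared regions, peaks of 1 replicate alone and peaks of the series list alone were kept as separate layers.

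The animals were hermaphrodites at larval stage L3 of strain OP305, grown at 20 °C. The strain has an unc119(ed3) background and the transgene wgIs305, in which nhr-11 is fused to TY1, EGFP and FLAG tags and which also carries unc119. The transgene was introduced by bombardment. Both ChIP libraries and both input libraries came from this strain, so every group carries the fusion, and the listed genotype shows no change in the animals' own nhr-11. Chromatin was precipitated with anti-GFP antibodies from whole worms, so the lists do not tell which cells a site was bound in, and binding by the fusion is what was measured. Input libraries were not analysed here. Nothing in the labels says that replicates 1 and 2 came from separate cultures, so their agreement may be technical.

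Nuclear hormone receptors are transcription factors that bind DNA through a pair of zinc fingers and, in many members, switch activity when a small lipophilic ligand is bound. C. elegans has a greatly expanded family of them, many with no known ligand. In this species hermaphrodites carry a pair of X chromosomes and males a single one, and a condensin-like dosage compensation complex lowers transcription from both hermaphrodite X chromosomes. The X is also known for few genes with germline expression and many expressed in somatic tissues such as muscle and neurons. No gene annotation or genome sequence of WS220 was used here, so regions are described by position and not by gene or motif.

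About as many X peaks recurred between the replicates as peaks elsewhere. In replicate 1, 209 of 357 X peaks overlapped a replicate 2 peak (58.5%, exact 95% interval 53.2 to 63.7%), where the rate over all chromosomes was 55.3%. In replicate 2, 209 of 339 X peaks overlapped a replicate 1 peak (61.7%, 56.2 to 66.9%), where the rate over all chromosomes was 62.9%. The intervals on X contain the overall rates in both lists. Nearly all of the regions, 206 of 208, joined a single peak of each list. Starts of these pairs differed by a median of 39 bp and ends by 32 bp, and the overlap covered a median of 81.4% of the merged region, against 33 bp, 35 bp and 79.0% on the autosomes.

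The strongest X peaks were found in both replicates, apart from 1 peak of each list. Each list was divided into 4 equal parts by its significance value, and in the strongest part 89 of 90 X peaks of replicate 1 and 89 of 90 of replicate 2 were shared (98.9%, 94.0 to 99.97% in each). The rates over all chromosomes in that part were 94.4% in replicate 1 and 97.5% in replicate 2, so the X shares were near them. Sharing then dropped in replicate 1 to 62.1%, 36.0% and 34.9% of X peaks in the following parts, where the rates over all chromosomes were 63.8%, 38.3% and 24.8%. In replicate 2 the following parts stood at 72.8%, 41.9% and 30.5% on X, where the rates over all chromosomes were 70.9%, 49.1% and 33.9%. In the weakest part the X share lay above the autosomal one in replicate 1 (34.9%, 24.8 to 46.2%, against 23.0%, 19.2 to 27.1%) and below it in replicate 2 (30.5%, 20.8 to 41.6%, against 34.6%, 29.9 to 39.5%), so the lists gave no common direction there.

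**Figure D1:**
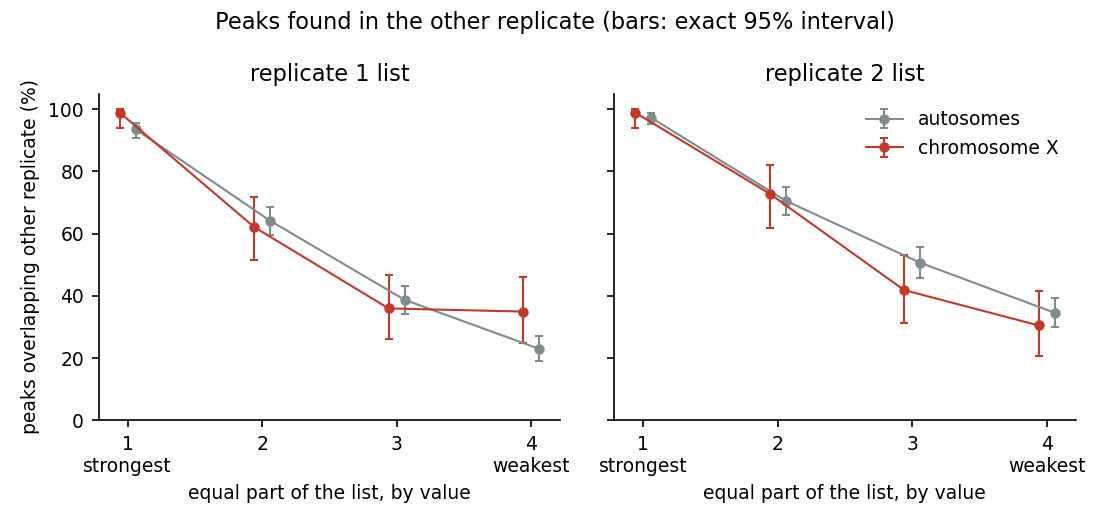
Percent of peaks (vertical axis) that overlap a peak of the other replicate, in 4 equal parts of the list from the strongest to the weakest significance value (horizontal axis), for chromosome X and for the 5 autosomes together. Points are shares and bars exact 95% intervals; X starts at 98.9% in both lists and ends at 34.9% in replicate 1 and 30.5% in replicate 2.

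The strongest shared region of X lay at 8035950 to 8036914 and spanned 965 bp. Its significance value was 8.23e-65 in replicate 1 and 6.66e-61 in replicate 2. With 6.05e-112 it held place 5 of all peaks of the series list. It was the first X peak in each of the 3 lists, and its edges differed between the replicates by 21 bp and 46 bp. The second region, at 14525364 to 14526319, had values of 2.71e-56 and 1.98e-56 in the replicates and 1.32e-104 in the series list. Its replicate peaks differed by only 4 bp at the start and 14 bp at the end. The third, at 6296010 to 6296896, had values of 9.3e-55, 2.59e-55 and 1.71e-100 in replicate 1, replicate 2 and the series list. Here the start differed more between the replicates, by 122 bp.

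The fourth and the fifth regions of X, at 2996419 to 2997463 and at 16056101 to 16056808, had the same X places in both replicates, as had the first 3. The replicates gave 6.06e-49 and 4.61e-51 for the fourth and 8.49e-47 and 9.55e-49 for the fifth. From the sixth region on the order in the replicates differed. The region at 11093799 to 11094498 held X places 6 and 7 in replicates 1 and 2, with values of 1.29e-43 and 6.92e-44. That at 13700459 to 13701093 held X places 8 and 6, with 1.91e-40 and 1.12e-44. That at 9465436 to 9466284 held X places 7 and 9, with 1.63e-40 and 4.37e-43. All of these regions had a stronger value in the series list than in either replicate. So had all 208 shared regions of X, and 1210 of 1212 over all chromosomes, so this was not particular to X. For each region the strongest overlapping series peak was used. The weak region at 11474373 thus took 3.89e-33 from a series peak that also covered a stronger region.

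Places 9 and 10 among the shared regions of X were taken by 12362612 to 12363617 and 16929358 to 16930439. The latter is the first with a close neighbour, 85 bp away, and a single series peak of 2606 bp at 16929358 to 16931963 (1.38e-102) covered it together with the shared region that starts at 16930525. That series peak held place 3 on X, while the region held X places 9 and 12 in the replicates. Places 11 to 15 lay at 11605404 to 11606515, 4208502 to 4209635, 5840883 to 5841524, 11937082 to 11937751 and 12200351 to 12200982. The replicates differed most within this set at 11937082, with 1.72e-25 in replicate 1 and 6.1e-33 in replicate 2. In 12 of the 15 regions the value was stronger in replicate 2, against 97 of the other 193 shared regions of X. Over all chromosomes replicate 1 had the stronger value in 629 of 1212 shared regions (51.9%). Of the 15 regions, 13 stood more than 10 kb from any other shared region, as did 134 of all 208 on X. Of the other 193 on X, 72 had another within 10 kb, and over all chromosomes 522 of 1212 (43.1%) did. Widths of the 15 ran from 632 to 1134 bp with a median of 887 bp.

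**Figure D2:**
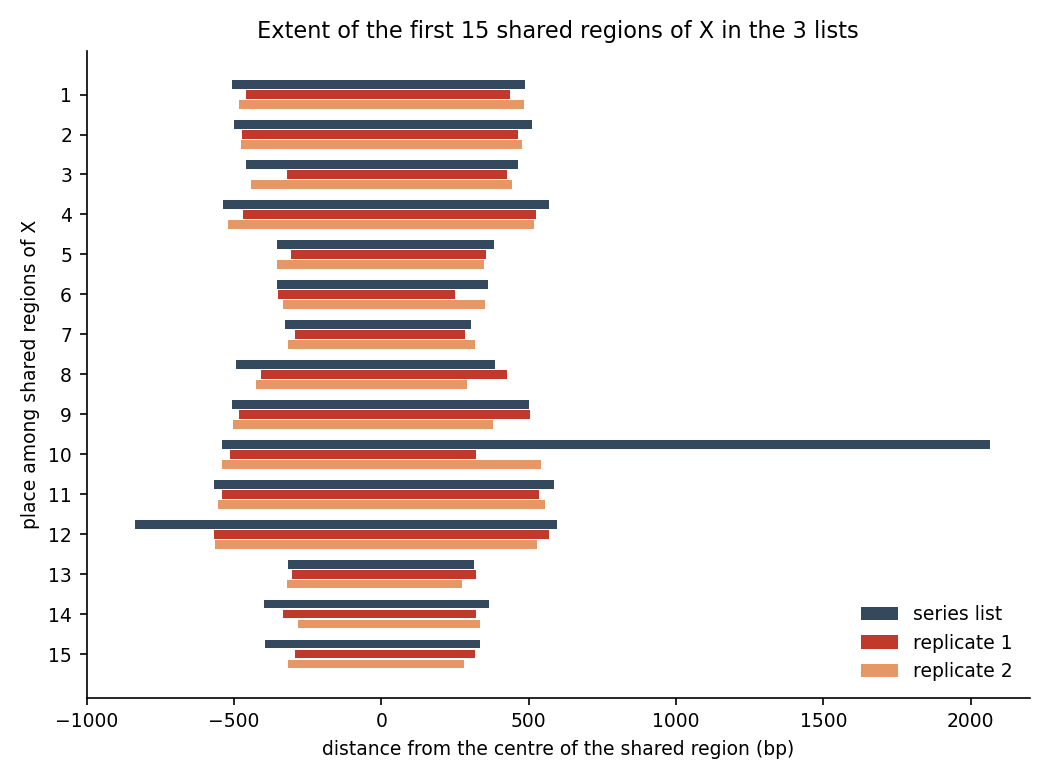
Extent of the replicate 1, replicate 2 and series peaks of the first 15 shared regions of chromosome X (rows, by place) as distance in bp from the centre of each shared region. The replicate bars overlap closely, with edges at most 122 bp (start) and 222 bp (end) apart, and the series bar of place 10 is 2606 bp long and also covers the next shared region.

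Over the 208 shared regions of X, the replicate lists ranked regions in a similar order. Spearman's rho between the replicate values was 0.751, against 0.713 on the autosomes together and 0.683 to 0.753 on single autosomes. These points share their libraries, so rho describes the 2 lists only. The −log10 values of the replicates differed by a median of 1.37, and by at most 1 in 84 regions (40.4%). The region with the most unequal values, at 11471938 to 11473732, had 8.09e-17 in replicate 1 and 2.86e-07 in replicate 2, where replicate 2 had 2 separate peaks in place of 1. The next, at 14063706 to 14064195, had 4.36e-16 and 4.03e-08. Both were picked with their values already known. The first 10 X peaks of the replicates had 9 sites in common, and the first 100 had 79. These counts and the differences of −log10 values above were taken on X only, so they do not set X apart from the autosomes.

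**Figure D3:**
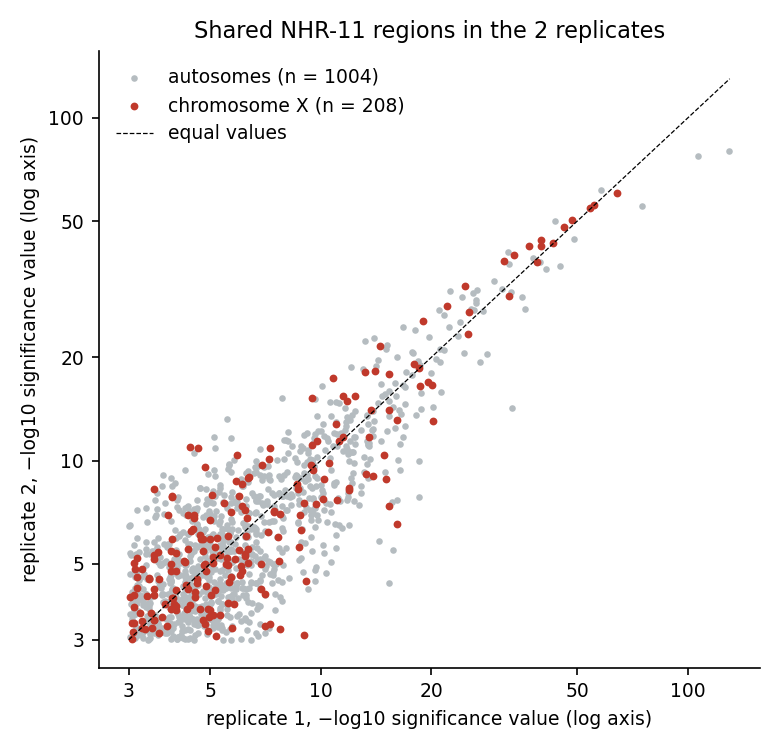
Significance values of the shared regions in replicate 1 (horizontal axis) and replicate 2 (vertical axis), as −log10 on log axes, for the 208 regions of chromosome X and the 1004 of the autosomes. The X regions follow the line of equal values from about 3, the limit of the lists, up to 64.1 and 60.2 at the strongest region.

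The median X peak had a value close to that of the autosomes, but the 95th percentile was higher on X in the replicate lists. The strongest peaks of these lists lay elsewhere. Chromosome IV reached a −log10 value of 129.5 in replicate 1 and 80.0 in replicate 2, against 64.1 and 60.2 on X. The median −log10 value of X shared regions (mean of both replicates) was 5.62, against 5.58 on the autosomes together and 5.47 to 5.72 on single autosomes. In replicate 1, the 95th percentile of −log10 values was 20.1 on X and 12.4 to 14.9 on single autosomes. Replicate 2 had 23.6 on X and 13.1 to 14.7 on single autosomes. X thus exceeded each autosome in both replicates at this percentile. In the series list the 95th percentile of X, 22.2, fell within the autosomal range of 15.1 to 24.1, below chromosome I.

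The same held for counts of very strong peaks. Values of 1e-20 or stronger were reached by 19 of 357 X peaks in replicate 1 (5.32%) and 19 of 339 in replicate 2 (5.60%), against 2.23% and 2.81% of autosomal peaks. In the series list the shares were closer, at 5.79% of X peaks and 5.12% of autosomal peaks, and chromosome I stood above X at 6.72%. X held 27 of the first 100 shared regions (27%, exact 95% interval 18.6 to 36.8%) on 17.7% of the length. Of the first 100 series peaks X held 21 and chromosome I 28. No test was made of these differences, since the 2 ChIP libraries form 1 group and regions are not replicates of a condition.

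X peaks had a higher median width than autosomal ones in each list. Shared regions of X had a median width of 482 bp (quartiles 344 and 676 bp), against 369.5 bp (281 and 511 bp) on the autosomes together and 353.5 to 374.5 bp on single autosomes. In replicate 1, the median X peak was 308 bp wide, above each autosome (225.5 to 283 bp). Replicate 2 had 333 bp on X and 267 to 308 bp on single autosomes. In the series list X stood at 263 bp, close to the widest autosome, III, at 259.5 bp. The differences of the medians between X and the autosomes together were 112.5 bp for shared regions, but 54.5 bp for all replicate 1 peaks and 45 bp for all replicate 2 peaks, that is, with either replicate left out. Merging extends a region to the outer edges of both peaks, and shared regions leave out the peaks of 1 replicate alone.

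In the strongest of the 4 parts, X peaks had median widths of 532.5 bp (replicate 1), 595 bp (replicate 2) and 543.5 bp (series list). Single autosomes reached 368.5 to 397.5 bp, 412 to 473 bp and 345 to 421 bp there. X peaks of that part also had stronger values in the replicate lists, with a median −log10 value of 11.1 against 9.24 on the autosomes in replicate 1 and 10.7 against 9.39 in replicate 2. Within fixed bands of value, X shared regions had a higher median width than each autosome in every band below 20. From 3 to 4 in −log10 value the medians were 377 bp on X and 254 to 339 bp on single autosomes, and from 4 to 6 they were 375 bp and 287.5 to 352 bp. Shared regions from 6 to 10 had a median width of 553 bp on X (39 regions) and 379 to 430 bp on single autosomes, and those from 10 to 20 had 665 bp (33 regions) and 401 to 630 bp. At 20 and above the medians were alike, 868 bp for 18 regions of X and 852.5 bp for 42 autosomal regions. In the unmerged lists X was above each autosome in every band below 20 only in replicate 2. From 3 to 4, replicate 1 had 187 bp on X and 133 to 232 bp on single autosomes. The series list had 175 bp and 84.5 to 188 bp there, and 293 bp and 199 to 306 bp from 6 to 10.

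**Figure D4:**
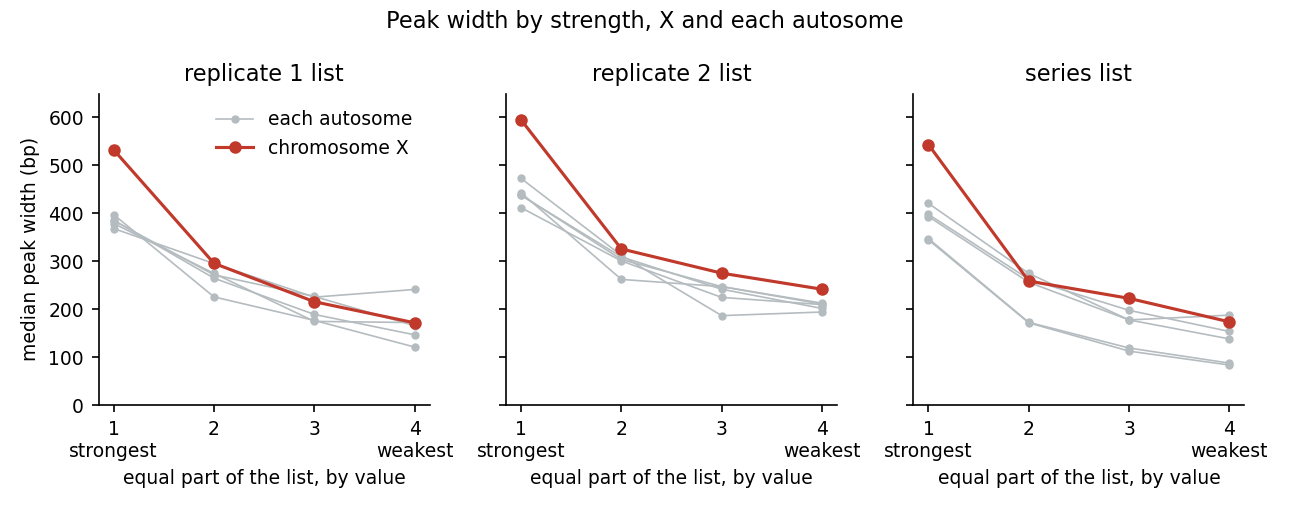
Median peak width in bp (vertical axis) in 4 equal parts of each list from the strongest to the weakest significance value (horizontal axis), for chromosome X and each of the 5 autosomes. X lies above every autosome in the strongest part of all 3 lists (532.5, 595 and 543.5 bp), and within the autosomal range in parts 3 and 4 of replicate 1 (216 and 172 bp) and parts 2 and 4 of the series list (259 and 174 bp).

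Peaks wider than 1000 bp were rare in all layers. Of the shared regions of X, 17 passed that width (8.17%, 4.83 to 12.8%), where the rate over all chromosomes was 5.53%. The widest X region, at 3114798 to 3116642 (1845 bp), joined offset peaks of 1143 bp in replicate 1 and 1514 bp in replicate 2. Replicate 1 covered 3114798 to 3115940 and replicate 2 covered 3115129 to 3116642, with values of 9.9e-07 and 1.36e-08. The region at 11471938 to 11473732 (1795 bp) was next. The third, at 6740734 to 6742432 (1699 bp), was equally wide in both replicates, 1698 and 1650 bp, with values of 3.01e-12 and 1.8e-12.

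Peaks of 1 replicate alone were weaker and narrower than shared ones. On X, 148 peaks were called in replicate 1 alone, with medians of 153.5 bp in width and 3.76 in −log10 value, against 413 bp and 5.59 for shared replicate 1 peaks. In replicate 2 the 130 X peaks called alone had medians of 245 bp and 3.75, against 447 bp and 5.58 for shared ones. The autosomal peaks of replicate 1 alone were 152 bp wide and those of replicate 2 alone 199 bp, so in replicate 1 the width difference between X and autosomes was seen in shared peaks and not in these. Of the X peaks called alone, 119 of 148 in replicate 1 (80.4%, 73.1 to 86.5%) and 114 of 130 in replicate 2 (87.7%, 80.8 to 92.8%) overlapped a series peak. The rates over all chromosomes, 85.2% and 86.9%, lie inside these intervals. Few lay beside a shared region: 6 of the 148 (4.05%) and 5 of the 130 (3.85%) were within 1000 bp of one, against 6.35% and 6.27% on the autosomes.

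The strongest X peak called in replicate 1 alone lay at 4137451 to 4138102, with a value of 7.82e-11, and is the 1 exception in the strongest part of that list. It was recovered in the series list at 4137440 to 4138124 with 2.6e-16. It sits next to 3 shared regions, the nearest 1657 bp away. In these, replicate 1 and replicate 2 gave 0.000397 and 2.91e-05 at 4139760, 8.46e-21 and 2.43e-17 at 4142086, and 3.2e-19 and 2.36e-19 at 4144894. Replicate 2 thus had strong peaks within a few kb of a site that it lacked. The second and the third peaks of replicate 1 alone, at 11193726 to 11193977 and 11035608 to 11035805, had values of 7.45e-07 and 1.3e-06.

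In replicate 2 the strongest X peak called alone lay at 3943970 to 3944593, with a value of 1.19e-07, and is the matching exception of that list. The series list had it at 3943867 to 3944585 with 1.17e-15, and the nearest replicate 1 peak was 35857 bp away. The others, at 17520873 to 17521530 and 4981953 to 4982243, had values of 9.69e-07 and 1.08e-06. No read counts accompany the lists, so how far such a site was from the limit of 0.001 in the other replicate is unknown.

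The rule of a 1 bp overlap decided few cases on X. The smallest overlaps counted as shared were 10 bp at 15202114, 13 bp at 16740272 and 18 bp at 5725009. Those of 10 bp and 13 bp were whole replicate 2 peaks lying inside wider replicate 1 peaks. An overlap of at least 50% of both peaks left 188 shared regions on X. On the other side, a 12 bp peak of replicate 1 at 10254202 and a 14 bp peak of replicate 2 at 10254179 missed each other by 9 bp, and peaks at 5319330 and 5319361 by 23 bp. The next pair called once in each replicate stood 509 bp apart.

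The series list added 481 X peaks that overlapped neither replicate list (52.6% of 915, exact 95% interval 49.3 to 55.8%), where the rate over all chromosomes was 63.1%. Single autosomes ran from 51.3% on III to 74.3% on IV, a range that includes X. The 481 X peaks were weaker and narrower than the other 434 X series peaks, at medians of 180 bp against 380 bp in width and of 4.02 against 7.91 in −log10 value. In the strongest part of the series list, 5 of 214 X peaks (2.34%, 0.763 to 5.37%) were in neither replicate list, against 12.3% (10.7 to 14.1%) of autosomal peaks and 11.1% over all chromosomes. The autosomes differed widely among themselves here, from 2.22% to 19.6%, and X lay within that range. The strongest X peaks of the series list alone lay at 8012495 to 8012785 (1.81e-09), 1258735 to 1258791 (2.21e-09) and 13160122 to 13160376 (3.4e-09). The series has no other ChIP libraries, so its list does not test a replicate peak independently.

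X had about the autosomal density of shared regions and, of the 6 chromosomes, the lowest share of them in the middle. It held 11.8 of them per Mb, taking its length as the highest coordinate in the lists, against 12.2 on the autosomes together and 7.36 to 20.0 on single autosomes. The ratio of X to autosomal density was 0.966 (0.828 to 1.12). For peaks of the series list it was lower, 0.691 (0.644 to 0.741), with 51.7 per Mb on X and 45.0 to 124 on single autosomes. The middle of 3 equal parts of X held 66 of the 208 regions (31.7%, exact 95% interval 25.5 to 38.5%), the left part 65 and the right part 77. On single autosomes the middle part held 38.3% to 52.9% of the regions, and 45.2% (42.1 to 48.4%) over all 5. The lowest of these, 38.3% on IV (31.4 to 45.5%), has an interval that overlaps that of X. In replicate 1 the middle part held 29.4% of X peaks and 38.1% to 47.4% of peaks on single autosomes, and in replicate 2 it held 30.7% and 37.1% to 54.4%. X had the lowest middle share of the 6 chromosomes in both replicate lists and in the series list. There it was 29.3%, against 34.1% on IV, the next lowest, and up to 47.5% on II. The intervals treat neighbouring regions as independent and are therefore too narrow, and no test of the difference was made.

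By the ratio of variance to mean, counts per 1 Mb varied less along X than along any autosome. In complete 1 Mb bins, X held 3 to 19 shared regions, with a median of 11 and an SD of 3.91. The variance of these counts was 1.30 times their mean, against 1.42 to 3.90 times on single autosomes. Chromosome IV, at 1.42, was close to X, with an SD of 4.03 over the same number of bins. For replicate 1 peaks the ratio was 1.17 on X and 1.74 to 4.38 on autosomes, and for replicate 2 peaks it was 1.09 and 1.73 to 5.83. In the series list it was 1.70 and 2.79 to 8.21, but there the SD divided by the mean was 0.183 on X and 0.154 on I. The bin with the fewest regions, from 9 to 10 Mb, held 3, next to the bin from 8 to 9 Mb with 18. The fullest, from 12 to 13 Mb, held 19 shared regions, 29 peaks of replicate 1, 27 of replicate 2 and 72 of the series list, the highest count of each on X.

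**Figure D5:**
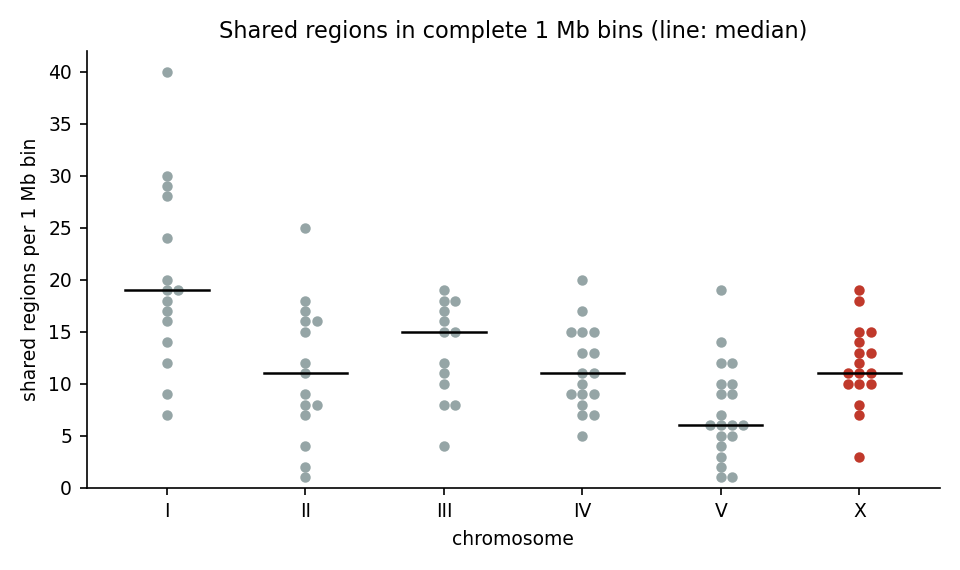
Number of shared regions in each complete 1 Mb bin (points, vertical axis) by chromosome (horizontal axis), with the median as a line. The 17 bins of X run from 3 to 19 around a median of 11, while those of chromosome I reach 40 and those of II and V go down to 1.

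Of the shared regions of X, 74 of 208 had another within 10 kb (35.6%, exact 95% interval 29.1 to 42.5%), where the rate over all chromosomes was 43.1%. Single autosomes ran from 34.4% on V to 54.3% on I. These 74 regions formed 26 groups, and 134 regions stood alone. The group with the most regions, at 12200351 to 12210971, held 6, led by the region of place 15 described above. Its strongest member, at 12200351, had values of 5.35e-26 and 6.33e-28 in replicates 1 and 2. The weakest value of replicate 1 was 0.000199, at 12205087, and that of replicate 2 was 0.000673, at 12203723. At 12206496 the replicates gave 4.02e-05 and 1.05e-11, and at 12210277 they gave 1.46e-05 and 2.46e-10. Of the 6 members, 4 had a stronger value in replicate 2. Over all shared regions of X, replicate 1 had the stronger value in 99 of 208 (47.6%).

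A group of 5 regions at 13350885 to 13359024 was more even. Its members, 411 to 665 bp wide, had values between 4.12e-07 and 5.07e-14 in replicate 1 and between 4.66e-09 and 6.23e-16 in replicate 2, and held places 41 to 65 among the shared regions of X. The group of 5 at 11466990 to 11480300 mixed strong and weak regions. At 11475362 the values were 4.4e-16 and 8.05e-15, while the region at 11474373 beside it had 0.000878 and 0.000448. A single series peak of 1715 bp with a value of 3.89e-33 covered both. The remaining group of 5, at 12509205 to 12523281, had values no stronger than 9.53e-10 in replicate 1 and 1.86e-10 in replicate 2.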

How the data were processed

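ChIP-seq peak lists of 2 ChIP replicates and of the whole series were used; the 2 input libraries were not analysed here. Peak positions follow WormBase WS220 per the file headers, and PeakSeq is named as the source of each row. The significance column holds p-values or q-values (which is not stated) deposited by the authors, ending just under 0.001. Starts and ends are in bp, another deposited quantity. The aligner, the control and how the series list was made are not given in the sources used here. Read counts were not among the values used, so depth is unknown and limits every count. The 1 series peak without a positive value, not on X, is listed at 0 and was set to 1e-320.

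Peaks were compared by overlap of at least 1 bp. The −log10 values were computed from the deposited column. For a shared region they are from the strongest peak of each list. Shares have exact (Clopper-Pearson) 95% binomial intervals, which cover counting error over peaks only. Distances between regions are gaps between edges. Named regions are the first 15 by summed rank, the 3 strongest of each one-list layer, the 3 widest, the groups with the most regions and the pairs nearest the overlap limit. Regions and comparisons were chosen with earlier results of these data known. Procedures were tested on simulated lists. Alternatives were an overlap of 50% (relative to the shorter peak, or to each), a limit of 0.0001, leaving out peaks under 50 bp, each replicate alone and the series list. Gene positions and sequences were not analysed here. Software was scipy 1.17.1, pandas 2.3.3, numpy 2.4.6 and matplotlib 3.10.9 under Python 3.11.15.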

Additional observations from a re-analysis of the deposited data

How the results depend on the processing

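Of 50 alternative values, 29 stayed within the set limits. The sign of the difference in median −log10 value between X and autosomal shared regions, 0.0395, was not stable: it was -0.0387 with an overlap of 50% of both peaks and -0.0451 in the series list, 0.385 with a limit of 0.0001, and 0.0404 to 0.117 with 1 replicate left out. The excess of X width, 112.5 bp, kept its sign under every alternative run, at 66 bp in the series list, 129.5 bp with a limit of 0.0001, 45 to 54.5 bp with 1 replicate left out and 97 bp without regions of −log10 value 20 or more. The last setting, and dropping the regions of chromosome IV between 9 and 10 Mb (112 bp), were chosen after seeing the data. In the series list the density ratio was 0.691. An overlap of 50% of both peaks left 52.7% of replicate 1 and 55.5% of replicate 2 X peaks shared, and a limit of 0.0001 gave 64.5% in replicate 1. X series peaks in neither list came to 36.7% with that limit on the series list alone, where the replicate lists kept all their peaks. They came to 64.7 to 65.2% with 1 replicate left out, as fewer peaks could match. Neighbours within 10 kb came to 72.8% in the series list and 43.4 to 45.7% with 1 replicate left out, and 43.8% had one within 20 kb. Spearman's correlation between the replicates over X shared regions was 0.836 for peak widths in place of values. Leaving out a replicate gives no shared regions, so their number and this correlation have no such value. No paired analysis was possible because no list of the inputs was used and nothing was tested between groups.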

Other observations

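The series list strengthened X regions by about the same factor as those of 3 autosomes. The −log10 value of the series peak was a median of 2.10 times the mean of the replicates over the shared regions of X. It was 2.13 times on II, 2.09 times on III and 2.09 times on V, against 2.94 times on I and 3.19 times on IV.

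The longest stretch of X without a peak in either replicate ran from 8986823 to 9320870 (334048 bp), beginning near the end of the 1 Mb bin with 18 shared regions. The series list had 5 peaks inside it, the strongest with a value of 3.36e-06. The longest such stretches of the autosomes ran from 213333 bp on I to 407136 bp on V. The stretch was chosen after its values were seen.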
